A study of Mus musculus with 2 samples.

Results

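The 10 genes described here are the simple-epithelial keratins Krt7, Krt8, Krt18 and Krt19, the epithelial adhesion genes Epcam and Cdh1, and the mesenchymal-side genes Cdh2, Vim, Zeb1 and Zeb2, out of 32285 genes in the files. They were taken by gene symbol and read as raw counts of unique molecular identifiers (UMIs, each standing for 1 captured transcript) in single cells of orthotopic mouse pancreatic tumors. There was 1 library labelled FLOX and 1 labelled MCT1-KO, so no difference between them has a replicate check, and the intervals given are 95% intervals that cover counting error only. By the study's methods the hosts were male mice, either MCT1 fl/fl or Col1a2-CreERT2 MCT1-/-, where Cre, driven by Col1a2 regulatory sequence and switched on by tamoxifen, should remove MCT1 from pancreatic stellate cells and other fibroblast-like cells. Tamoxifen was injected before the tumor cells, and the sources used here do not settle whether the FLOX host had tamoxifen or corn oil, or give the age of these hosts. All hosts received the same KPC cells, a cultured mouse pancreatic cancer line, which were placed in the pancreas in Matrigel and did not come from these hosts. The tumors were dissociated 2 to 3 weeks later, with no sort described. Slc16a1, the gene of the MCT1 lactate transporter, stood at 36.3 CPM (UMIs of a gene scaled to a common total of UMIs) in FLOX and 44.96 CPM in MCT1-KO in the fibroblast-rule cells defined below, a ratio of 1.24 (1.12 to 1.37), and at 37.8 and 42.6 CPM, a ratio of 1.13 (0.961 to 1.32), in those with 20 or more UMIs of Dcn and Lum. It was not lower in MCT1-KO in either set (a 3′ count need not cover the deleted part), and "MCT1-KO" is used as the name of a library. The study reports less MCT1 in stellate cells of its knockout mice, by protein and RNA of primary cells and by immunofluorescence. It also reports lower MCT1 in the cells it called stellate in its single-cell data.

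Keratins build intermediate filaments from pairs of a type II chain (Krt7, Krt8) and a type I chain (Krt18, Krt19), and simple epithelia such as the pancreatic duct use these 4. Cdh1 (E-cadherin) holds epithelial cells together, and Epcam is another adhesion protein of the epithelial surface. In epithelial-mesenchymal transition (EMT) the zinc-finger repressors Zeb1 and Zeb2 bind E-box sequences of epithelial promoters, Cdh1 is lost, and Cdh2 (N-cadherin) and the filament protein Vim are gained. Pancreatic cancer lines range from epithelial to mesenchymal.

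Tumor cells were taken by exclusion. A tumor-rule cell had 200 to 5000 genes, at most 8% of UMIs from mitochondrial genes, 3000 or more UMIs, 0 UMIs of the leukocyte gene Ptprc and of the endothelial gene Pecam1, and at most 1 UMI of the fibroblast genes Dcn and Lum together. This gave 1442 FLOX and 2686 MCT1-KO cells out of 4963 and 6286 barcodes that passed the limits on genes, UMIs and mitochondrial share. They held 17410247 and 36162381 UMIs, with a median of 10061 and 14536 per cell, and 3 of their barcodes occurred in both libraries. Fibroblast-rule cells, 1055 in FLOX and 1505 in MCT1-KO, met the same limits but had 2 or more UMIs of Dcn and Lum. The rules use none of the 10 genes.

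Exclusion by Ptprc left macrophage RNA behind. The 7 macrophage markers summed to 6226 CPM in FLOX and 2625 CPM in MCT1-KO tumor-rule cells, of which Cd74 made up 3593 and 1539 CPM. Of these cells, 248 in FLOX and 264 in MCT1-KO gave 1% or more of their UMIs to Lyz2, C1qa, C1qb and C1qc. Leaving out cells at 0.2% or more of these 4 genes, a limit set after the data were seen, kept 1119 FLOX cells (77.6%) and 2371 MCT1-KO cells (88.3%), called macrophage-poor. A Krt8 or Krt18 UMI was present in 97.1% of these cells in FLOX and 97.1% in MCT1-KO, against 49.5% of the 323 and 41.3% of the 315 cells left out. At 3000 UMIs per cell these shares were 86.3% (84.2 to 88.3) and 87.9% (86.5 to 89.1) against 35.3% (30.1 to 40.8) and 29.5% (24.5 to 34.9), where the median depth before thinning was 14732 and 15533 UMIs in the cells kept and 5388 and 4943 in those left out. Of epithelial markers other than the members, the duct and tumor transcription factor Sox9 was found in 72.0% and 85.0% of macrophage-poor cells (FLOX first), the surface gene Tspan8 in 82.8% and 82.2% and the protease inhibitor Spint2 in 64.9% and 70.9%. The duct channel gene Cftr was found in 0.268% and 0.422% and the mucin Muc1 in 2.68% and 3.42%. These shares were not thinned. The 6 duct markers, which hold no member, summed to 615 and 719.5 CPM in macrophage-poor cells, to 677 and 616 CPM in barcodes of 10 to 100 UMIs, taken as empty, to 788 and 831 CPM in fibroblast-rule cells with 20 or more UMIs of Dcn and Lum and to 93.5 and 102 CPM in the macrophage/monocyte-rule cells defined below. The 11 markers of tumor or duct epithelium, 6 of them members, gave 1535 and 1918 CPM in macrophage-poor cells and 1489 and 1749.7 CPM in empty barcodes. By their sums the duct markers set the macrophage-poor cells apart from macrophage/monocyte-rule cells, but not from empty barcodes or fibroblast-rule cells. The 5 mural markers summed to 100.6 and 95.8 CPM in macrophage-poor cells and to 58.8 and 62.1 CPM in empty barcodes. In fibroblast-rule cells with 20 or more UMIs of Dcn and Lum they summed to 97.2 and 100.4 CPM. Of the tumor-rule cells, 41 in FLOX and 197 in MCT1-KO passed a limit for acinar, islet, mural or Schwann genes.

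E-boxes of the form CACCTG, or its reverse complement CAGGTG on the other strand, were searched in the 250 bases before each RefSeq start site (build GRCm38.p6), since this is the letter core that Zeb proteins bind. Of the members given here, Epcam held 2, Krt7 and Krt18 held 1 each, and Vim and Zeb2 held 0, where 17.2% of 32851 promoters of this length held at least 1. The Epcam promoter is shown because Epcam UMIs were concentrated in a few cells, and its E-boxes begin 187 and 19 bases before the start site. The windows of Krt7 and Krt18 are shown as examples from the keratins. Capitals mark the E-box, and each sequence is read on the strand of its gene.
Epcam promoter, chr17:87635729-87635978, plus strand: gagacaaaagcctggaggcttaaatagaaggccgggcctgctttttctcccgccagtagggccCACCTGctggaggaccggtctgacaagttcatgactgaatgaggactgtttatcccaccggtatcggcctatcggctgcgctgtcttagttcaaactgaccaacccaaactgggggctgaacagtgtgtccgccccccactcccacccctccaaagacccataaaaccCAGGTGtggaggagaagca
Krt7 E-box, chr15:101412347-101412376, plus strand: ccgccctgtcccCACCTGtgtgcgctcagc
Krt18 E-box, chr15:102027990-102028019, plus strand: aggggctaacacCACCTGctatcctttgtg
A match describes the letters in the window only, and binding was not measured. Cdh1 and Krt19 were not matched to a promoter entry, and the promoters of Cdh2 and Zeb1 were not looked at.

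The filament pair Krt8 and Krt18 was read in most macrophage-poor cells together with Vim. Krt8 stood at 446 CPM (435 to 457) in FLOX and 560.1 CPM (552 to 568) in MCT1-KO. Krt18, its partner chain, stood at 572 CPM (559.7 to 584) in FLOX and 627 CPM (619 to 635) in MCT1-KO. Vim stood at 2727 CPM (2701 to 2753) in FLOX and 3395 CPM (3375 to 3414) in MCT1-KO. All 3 were higher in the MCT1-KO library, with intervals that did not overlap. A keratin UMI (any of the 4) and a Vim UMI were present together in 96.8% (95.6 to 97.7) of FLOX and 96.9% (96.1 to 97.5) of MCT1-KO cells. After each cell was thinned at random to 3000 UMIs, so that depth is equal, these shares were 85.7% (83.5 to 87.7) and 87.9% (86.5 to 89.1).

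The duct keratins Krt7 and Krt19 were sparser. Krt7 stood at 46.4 CPM (43.1 to 49.9) in FLOX and 54.8 CPM (52.4 to 57.4) in MCT1-KO. Krt19 stood at 60.7 CPM (56.9 to 64.7) in FLOX and 57.4 CPM (54.9 to 60.0) in MCT1-KO, where the intervals overlapped. Thinned to 3000 UMIs, 10.6% (8.89 to 12.6) and 12.9% (11.5 to 14.3) of cells held Krt7 and 10.8% (9.05 to 12.8) and 9.66% (8.499 to 10.9) held Krt19, against 31.8% and 36.2% and 27.5% and 27.2% with all UMIs used. Macrophage/monocyte-rule cells, which should lack keratins (Ptprc present, 5 or more UMIs of the 4 macrophage genes and no Cd3 UMI, 1435 and 1312 cells), held Krt7 in 2.02% (1.36 to 2.89) and 1.60% (0.993 to 2.44) and Krt19 in 0.976% (0.534 to 1.63) and 1.68% (1.05 to 2.53) at 3000 UMIs. Their median depth was 6847 and 5478 UMIs, against 14732 and 15533 in macrophage-poor cells. All 4 keratins were found in the same cell in 11.3% of FLOX and 14.4% of MCT1-KO macrophage-poor cells without thinning.

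Both Zeb repressors were read in the same population. Zeb1 stood at 151 CPM (145 to 157) in FLOX and 146 CPM (142 to 150.3) in MCT1-KO, and 28.2% (25.5 to 30.9) and 31.5% (29.7 to 33.5) of cells held it at 3000 UMIs. Zeb2 stood at 147 CPM (141 to 153) in FLOX and 129 CPM (125 to 133) in MCT1-KO, and 31.6% (28.9 to 34.5) and 30.5% (28.7 to 32.4) held it. Cells with a keratin, Vim, and Zeb1 or Zeb2 but no Epcam or Cdh1 UMI made up 40.3% (37.4 to 43.2) of FLOX and 44.9% (42.9 to 46.9) of MCT1-KO cells at 3000 UMIs, and 74.4% and 78.5% with all UMIs used. Keratin, Vim and Zeb transcripts were thus read in the same barcodes.

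The adhesion genes and Cdh2 were rare. Epcam stood at 9.18 CPM (7.72 to 10.8) in FLOX and 9.03 CPM (8.05 to 10.1) in MCT1-KO, and 1.88% (1.17 to 2.85) and 1.35% (0.925 to 1.90) of cells held it at 3000 UMIs, against 0.348% (0.113 to 0.811) and 0.305% (0.0831 to 0.779) of macrophage/monocyte-rule cells. Its level was 7.71 (4.36 to 14.8) and 1.29 (0.970 to 1.73) times theirs, above 1 in FLOX and with an interval that held 1 in MCT1-KO, and Epcam in those cells stood at 1.19 and 7.02 CPM (FLOX first), a ratio of MCT1-KO over FLOX of 5.89 (3.19 to 11.7). Cdh1 stood at 6.38 CPM (5.18 to 7.77) in FLOX and 6.46 CPM (5.64 to 7.37) in MCT1-KO, and 1.61% (0.956 to 2.53) and 1.64% (1.17 to 2.24) held it, against 1.11% (0.639 to 1.80) and 1.07% (0.585 to 1.78) of macrophage/monocyte-rule cells. For Cdh1 the intervals of the classes overlapped in both libraries, so its share of cells was not separable from theirs at this depth. Its level was 2.11 (1.41 to 3.23) and 1.14 (0.826 to 1.59) times theirs, again with an interval that held 1 in MCT1-KO. Cdh2 had 30 UMIs in FLOX and 26 in MCT1-KO macrophage-poor cells, or 1.95 CPM (1.32 to 2.79) and 0.760 CPM (0.496 to 1.11).

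**Figure D1:**
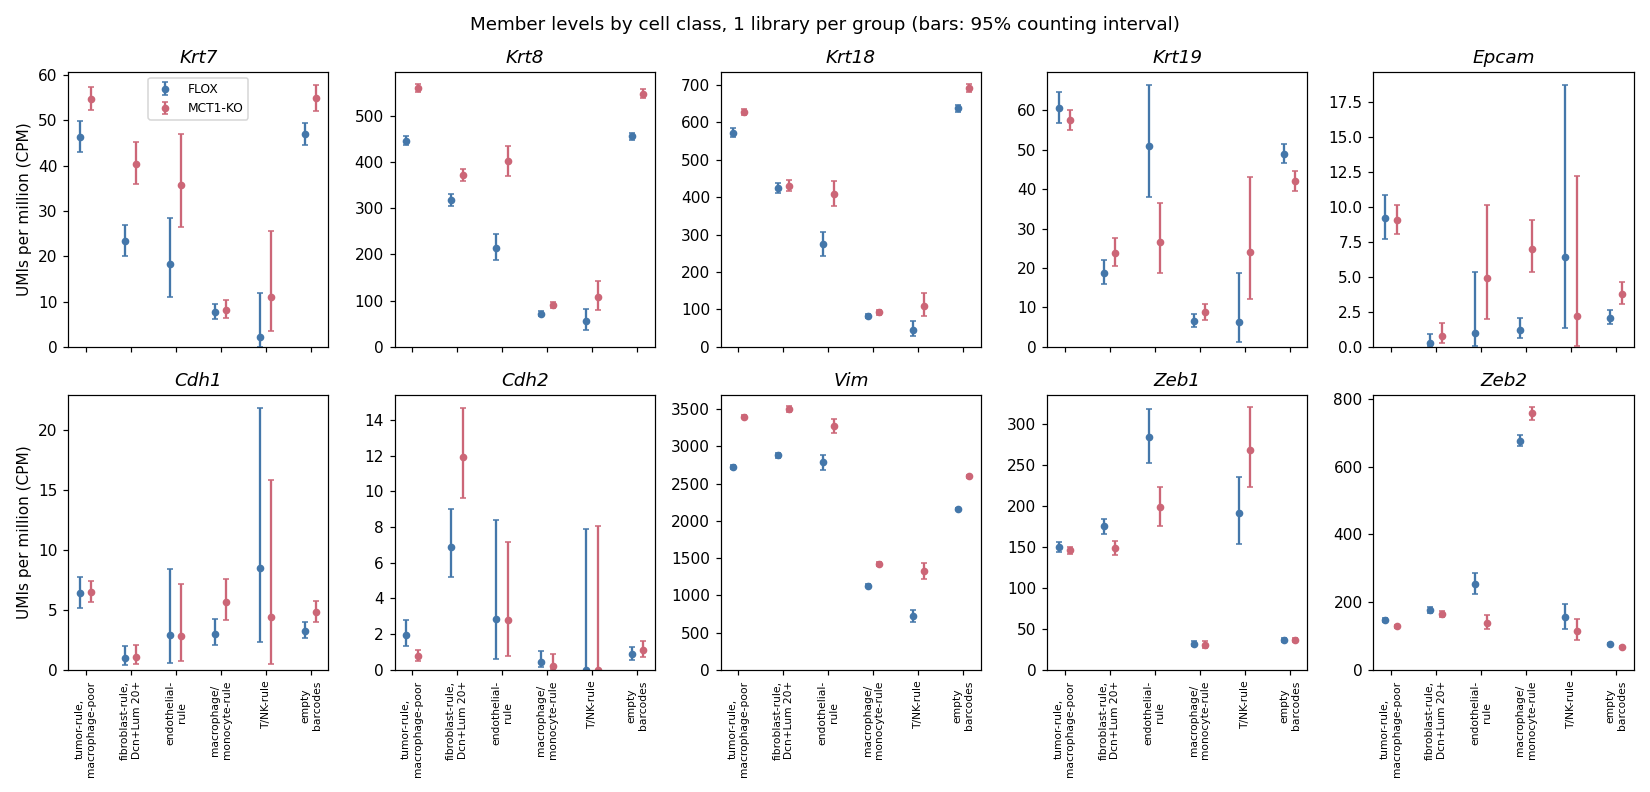
Level of each member in CPM (vertical axis, from 0, a scale of its own for each gene) in 5 cell classes and in empty barcodes, for the FLOX and the MCT1-KO library. Points are UMIs summed over the class and bars are 95% counting intervals. Krt8 and Krt18 in empty barcodes sit close to the tumor-rule level, Zeb2 is highest in macrophage/monocyte-rule cells, and Cdh2 in fibroblast-rule cells.

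Keratin reads were not limited to tumor-rule cells. In empty barcodes, a measure of free RNA, Krt8 stood at 455 and 547 CPM (FLOX first) and Krt18 at 637 and 691 CPM. The level in macrophage-poor cells was 0.980 (0.952 to 1.01) and 1.02 (1.00 to 1.05) times this for Krt8 and 0.897 (0.875 to 0.920) and 0.908 (0.890 to 0.926) times for Krt18. For Krt7 it was 0.986 (0.900 to 1.08) and 0.999 (0.931 to 1.07) times, for Krt19 1.24 (1.14 to 1.35) and 1.37 (1.27 to 1.48) times and for Vim 1.26 (1.25 to 1.28) and 1.31 (1.29 to 1.32) times. Zeb1 was at 4.14 (3.86 to 4.45) and 4.05 (3.77 to 4.35) times its level in empty barcodes, Zeb2 at 1.89 (1.79 to 2.00) and 1.88 (1.78 to 1.99) times, Epcam at 4.39 (3.25 to 5.99) and 2.38 (1.89 to 3.02) times and Cdh1 at 1.95 (1.46 to 2.59) and 1.34 (1.07 to 1.68) times. Cdh2 was at 2.25 (1.29 to 3.94) and 0.687 (0.387 to 1.21) times, so in MCT1-KO it was not above its level in empty barcodes. Krt7, Krt8 and Krt18 thus stood at the level of empty barcodes or close to it in macrophage-poor cells, and their level alone does not tell cell from free RNA in these or in other barcodes. In macrophage/monocyte-rule cells, Krt8 was below its level in empty barcodes, at 71.9 and 91.0 CPM.

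Fibroblast-rule cells also held keratin UMIs. Cells with 20 or more UMIs of Dcn and Lum, 448 in FLOX and 581 in MCT1-KO, had Krt8 at 318 CPM (305 to 330.2) and 371 CPM (358 to 385), and the level in macrophage-poor tumor-rule cells was 1.40 (1.34 to 1.47) and 1.51 (1.45 to 1.57) times that. Against macrophage/monocyte-rule cells it was 6.203 (5.76 to 6.69) and 6.16 (5.72 to 6.63) times. Free RNA, wells with more than 1 cell and expression in fibroblasts cannot be told apart here. Krt19 was at 3.25 (2.73 to 3.88) and 2.41 (2.07 to 2.82) times the level of the same fibroblast-rule cells. Epcam had 2 and 6 UMIs in these fibroblast-rule cells and 141 and 309 in the macrophage-poor tumor-rule cells.

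Of the mesenchymal-side genes, Vim and the Zeb genes were close to the fibroblast level and Cdh2 was not. The level in macrophage-poor tumor-rule cells over fibroblast-rule cells with 20 or more Dcn and Lum UMIs was 0.948 (0.933 to 0.963) and 0.970 (0.957 to 0.983) for Vim, 0.859 (0.803 to 0.919) and 0.984 (0.922 to 1.05) for Zeb1 and 0.828 (0.774 to 0.885) and 0.782 (0.734 to 0.833) for Zeb2. Cdh2 was at 6.91 CPM (5.20 to 8.99) and 11.9 CPM (9.61 to 14.7) in those fibroblast-rule cells, and the ratio was 0.283 (0.175 to 0.449) and 0.0637 (0.0395 to 0.0994). Zeb2 was highest in macrophage/monocyte-rule cells, at 677 CPM (661 to 692) and 757 CPM (738 to 776), where 78.1% and 83.5% of cells held it at 3000 UMIs. Zeb1 was lowest there among the cell classes, at 32.2 and 30.7 CPM. Its level in endothelial-rule cells (113 and 126 cells) was 285 CPM (253 to 319) and 199 CPM (176 to 223), and in T/NK-rule cells (97 and 89) 192 CPM (154 to 236) and 269 CPM (224 to 321). The order of these last classes was opposite in the libraries.

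Between the libraries, 1 of the 10 members differed by 1.5-fold or more. Over tumor-rule cells Cdh2 was at 1.84 and 0.747 CPM, from 32 and 27 UMIs, a ratio of MCT1-KO over FLOX of 0.406 (0.234 to 0.700). Among 12836 genes with 50 or more UMIs, 10.8% were lower by 1.5-fold or more in MCT1-KO and 5.69% higher, so that 1 of 10 was near the background. In macrophage-poor cells the shares of 12478 genes were 8.49% and 5.46%, and Cdh2 again was the member past 1.5-fold, at 0.389 (0.221 to 0.681), where empty barcodes gave 1.28 (0.725 to 2.25). Free RNA was also subtracted in macrophage-poor cells, at 30.6% and 24.1% of their UMIs as estimated from Lyz2, Cd74, C1qa, C1qb and C1qc. These cells were chosen for few UMIs of 4 of these genes but not of Cd74, which stood at 2683 and 1214 CPM in them. In macrophage-poor cells the neutrophil markers summed to 124 and 59.5 CPM, against 1190.5 and 861 CPM in empty barcodes. The T/NK markers summed to 19.5 and 7.60 CPM, against 146 and 69.4 CPM. The red cell markers summed to 1.17 and 8.77 CPM, against 62.4 and 68.4 CPM. These lists lay below 30.6% and 24.1% of their empty-barcode sums, so by them the estimate was too high. The B cell markers, at 6.96 and 5.47 CPM against 5.75 and 7.47 CPM, lay above those shares. Cdh2 was then the member past 1.5-fold, at 0.267, where 8.53% of 12179 genes were lower and 8.86% higher in MCT1-KO. Over all tumor-rule cells the same estimate was 63.2% and 46.8%, since it also counts as free RNA the macrophage RNA of the cells with 1% or more, and 4 members were then past 1.5-fold, with Krt8 at 1.62, Krt18 at 1.65, Cdh2 at 0.123 and Zeb2 at 0.559. Under that subtraction 23.6% of 12459 genes were higher and 17.4% lower in MCT1-KO, so that 4 of 10 was again near the background.

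Krt8, Vim, Krt7 and Krt18 were higher in MCT1-KO by less than 1.5-fold. In tumor-rule cells Krt8 stood at 408 and 537 CPM, which gave 1.32 (1.28 to 1.35) for MCT1-KO over FLOX. Vim gave 1.30 (1.28 to 1.31), and the same ratio was 1.24 (1.14 to 1.35) for Krt7 and 1.16 (1.13 to 1.19) for Krt18. In empty barcodes it was 1.20 (1.17 to 1.23) for Krt8, 1.20 (1.19 to 1.22) for Vim, 1.17 (1.08 to 1.26) for Krt7 and 1.08 (1.06 to 1.11) for Krt18, in the same direction. Fibroblast-rule cells gave 1.23, 1.25, 1.24 and 1.09 in the same gene order, and endothelial-rule cells 1.87, 1.18, 1.96 and 1.49. Macrophage/monocyte-rule cells gave 1.27, 1.26, 1.05 and 1.12, where the interval of Krt7 held 1. The rise was thus not particular to tumor-rule cells. With free RNA subtracted in macrophage-poor cells the ratios were 1.28 for Krt8, 1.23 for Vim, 1.19 for Krt7 and 1.12 for Krt18, all above 1. The interval held 1 for Krt19 at 1.01 (0.933 to 1.09), Epcam at 1.06 (0.862 to 1.30), Cdh1 at 1.02 (0.804 to 1.29) and Zeb1 at 1.03 (0.977 to 1.08). For Epcam and Cdh1 this depended on the filter. With no upper limit on genes (2202 and 3392 cells) they were at 1.48 (1.22 to 1.81) and 1.33 (1.10 to 1.61). With 0 UMIs of Dcn and Lum they were at 0.737 (0.580 to 0.940) and 0.754 (0.573 to 0.999).

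Zeb2 was lower in MCT1-KO by less than 1.5-fold. Over tumor-rule cells it stood at 203 and 157 CPM, a ratio of 0.771 (0.739 to 0.804), where the macrophage markers summed to 6226 and 2625 CPM. In macrophage-poor cells, with these markers at 2988 and 1337 CPM, the ratio was 0.879 (0.835 to 0.925). Cd74 alone made up 2683 and 1214 CPM of these last sums, and its source was not tested. Empty barcodes, with the markers at 9859 and 5617 CPM, gave 0.882 (0.829 to 0.939). The genes most like Zeb2 over tumor-rule cells were Ctss, C1qc, C1qb, Fcer1g and C1qa, at a mean Pearson r over the libraries of 0.464 to 0.457 among 5994 genes, all known from macrophages. In macrophage-poor cells they were Malat1, Pdgfrb, mt-Nd4, Il6 and Irs2, at 0.190 to 0.130.

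**Figure D2:**
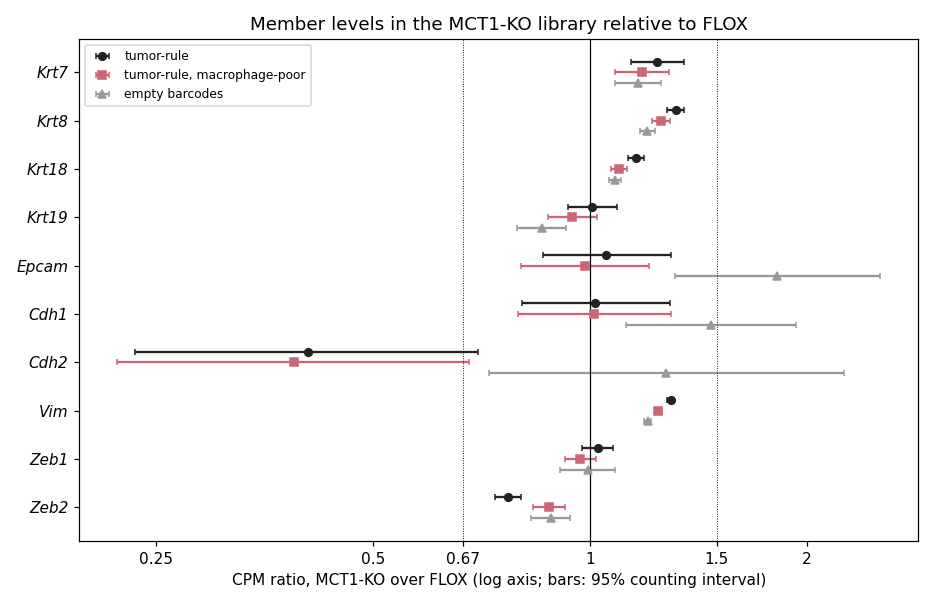
Ratio of the level in the MCT1-KO over the FLOX library for each member (log axis), in tumor-rule cells, macrophage-poor tumor-rule cells and empty barcodes, with 95% counting intervals and dotted lines at 1.5-fold. Cdh2 is the member past 1.5-fold in tumor-rule cells, at 0.406, and Krt7, Krt8, Krt18 and Vim lie above 1 in all 3 sets.

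Of 10 other EMT transcription factors, 8 had 50 or more UMIs over both libraries, of which 0 were higher and 2 lower by 1.5-fold in MCT1-KO tumor-rule cells, with a median ratio of 0.969 against 1.01 over all genes with 50 or more UMIs. Of all these genes 5.69% were higher and 10.8% lower. The lower ones were Prrx1, a mesenchymal homeobox gene, at 0.573 (0.398 to 0.827), and the helix-loop-helix factor Tcf4 at 0.634 (0.604 to 0.666). Fosl1, an AP-1 subunit, was at 1.26 (1.22 to 1.30) and Klf4 at 1.25 (1.22 to 1.29). Snai1, a repressor of Cdh1, was at 47.9 and 38.7 CPM, a ratio of 0.807 (0.740 to 0.880), and the SOX factor Sox4 at 0.858 (0.833 to 0.883), both lower in MCT1-KO by less than 1.5-fold. Foxc2 was at 1.19 (1.08 to 1.31) and Twist2 at 1.08 (0.707 to 1.68). Under 50 UMIs, the Snai1 relative Snai2 had 1 and 8 and Twist1 4 and 10.

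Of 26 epithelial junction and splicing genes, 15 had 50 or more UMIs, with 2 higher, 0 lower and a median ratio of 1.01, where the background was 5.69% and 10.8%. Ovol1, an epithelial repressor of Zeb genes, was at 1.32 and 2.27 CPM, a ratio of 1.72 (1.07 to 2.86). The tight junction gene Cldn3 was at 2.70 and 4.31 CPM, a ratio of 1.60 (1.15 to 2.26). The epithelial factor Elf3 gave the lowest ratio of these, 0.695 (0.548 to 0.882). In macrophage-poor cells, with a background of 5.46% and 8.49%, 1 was higher and 1 lower. Cldn3, at 1.47 (1.06 to 2.09), was under 1.5-fold there, and the lower one was Elf3 at 0.651 (0.513 to 0.829). Esrp1, a splicing factor of epithelia, had 14 and 13 UMIs in tumor-rule cells, and the epithelial transcription factors Grhl2 and Ovol2 had 10 and 18 and 4 and 3. The junction plaque genes Ctnna1, Ctnnb1, Ctnnd1, Jup and Tjp1 had 1108 to 3286 UMIs in FLOX and 2477 to 7834 in MCT1-KO, with ratios of 0.911 to 1.15. The desmosome plaque genes Dsp, Pkp1, Pkp2 and Pkp3 had 7 to 70 and 6 to 124 UMIs.

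Of 17 mesenchymal genes, 16 had 50 or more UMIs, with 2 higher, 2 lower and a median ratio of 0.964, against 5.69% and 10.8% of all genes. S100a4, a calcium-binding protein often used as an EMT marker, was at 1273 and 2768 CPM, a ratio of 2.17 (2.14 to 2.21), and the matrix gene Tnc at 236 and 366 CPM, a ratio of 1.55 (1.496 to 1.60). In macrophage-poor cells Tnc was at 1.45 (1.40 to 1.51), below 1.5-fold, which left 1 higher and 2 lower. The collagen Col3a1, at 0.617 (0.573 to 0.666), and the contractile gene Tagln, at 0.566 (0.498 to 0.645), were lower in tumor-rule cells. The 6 fibroblast markers summed to 189.6 and 125 CPM in these cells and to 1021 and 779 CPM in empty barcodes, and their part in these ratios was not tested. Of 49 other keratins, 4 had 50 or more UMIs, with 0 higher and 1 lower, against the same 5.69% and 10.8%. The lower one was Krt16, a stress keratin of stratified epithelium, with 34 and 30 UMIs and a ratio of 0.425 (0.251 to 0.715).

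Co-detection was counted in macrophage-poor cells at 3000 UMIs, as the cells with a UMI of both genes over the number that independence would give. Epcam with Cdh1 stood furthest from 1. In FLOX, 21 cells held Epcam, 18 held Cdh1 and 7 held both, 20.7 (8.34 to 42.6) times the expected 0.338 cells. In MCT1-KO, 32 held Epcam, 39 held Cdh1 and 17 held both, 32.3 (18.8 to 51.6) times the expected 0.526.

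Keratins were found together more often than independence gives in part of the pairs. Krt8 and Krt18 were both present in 557 FLOX and 1289 MCT1-KO cells, 1.08 (1.01 to 1.14) and 1.08 (1.04 to 1.12) times the expected number. Krt7 with Krt19 gave 1.24 (0.713 to 2.01) in FLOX and 2.21 (1.71 to 2.80) in MCT1-KO. Krt19 with Epcam gave 1.76 (0.480 to 4.50) and 3.24 (1.55 to 5.94). In FLOX the intervals of the last 2 pairs held 1. Zeb1 with Zeb2 gave 1.24 (1.04 to 1.47) and 1.11 (0.986 to 1.25).

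Pairs of an epithelial with a mesenchymal-side gene lay near or below 1. Krt8 with Vim gave 1.01 (0.964 to 1.06) and 1.01 (0.980 to 1.04), and Krt8 with Zeb1 0.928 (0.809 to 1.06) and 0.975 (0.901 to 1.05). Krt19 with Zeb1 gave 0.646 (0.406 to 0.973) and 0.789 (0.599 to 1.02). Epcam with Vim gave 0.588 (0.305 to 1.02) and 0.541 (0.316 to 0.865), and Epcam with Zeb2 0.301 (0.0365 to 1.08) and 0.205 (0.0248 to 0.739), from 2 cells in each library. Of the cells with an Epcam or Cdh1 UMI, 8 of 32 in FLOX, an interval of 11.5% to 43.4%, and 22 of 54 in MCT1-KO, an interval of 27.6% to 55.0%, held Zeb1 or Zeb2. Among the other cells the shares were 49.4% (46.4 to 52.4) and 51.6% (49.6 to 53.7), so the intervals were apart in FLOX and overlapped in MCT1-KO. For Vim the shares were 65.6% (46.8 to 81.4) and 72.2% (58.4 to 83.5) of the Epcam or Cdh1 cells against 98.1% (97.1 to 98.8) and 98.7% (98.2 to 99.2) of the others, apart in both libraries.

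**Figure D3:**
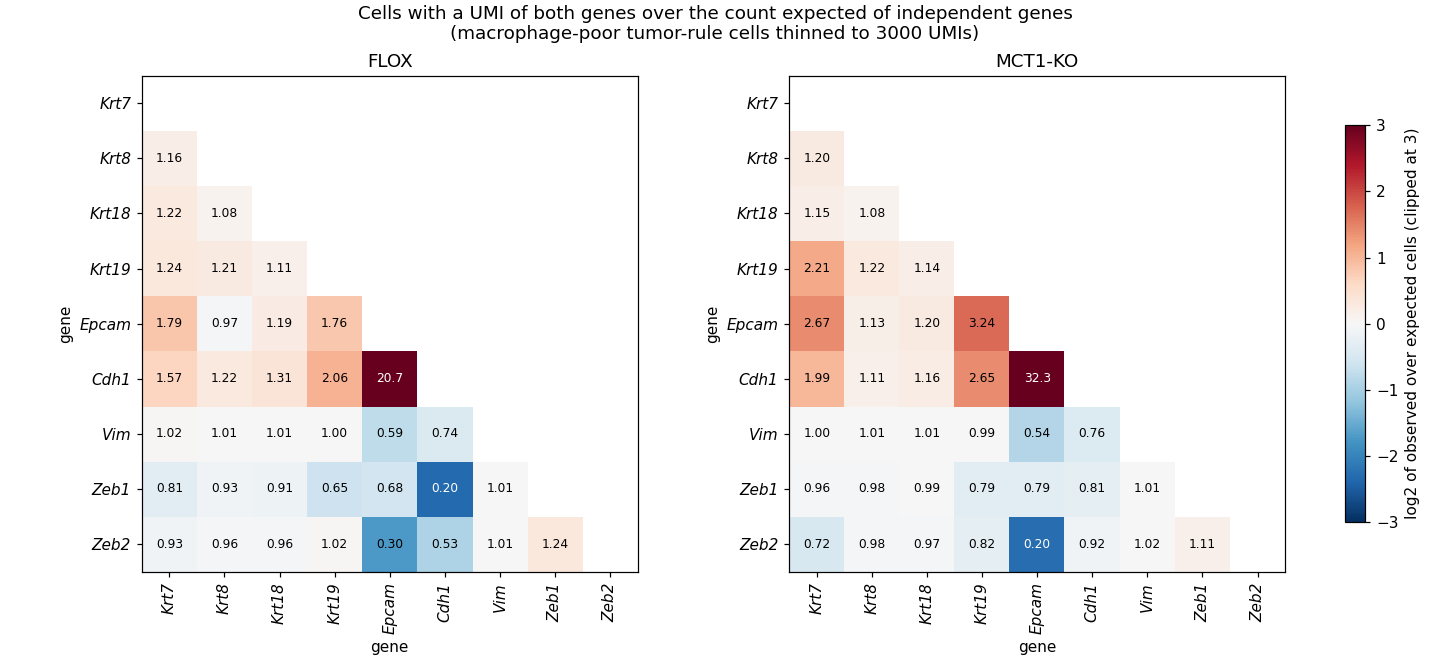
Observed over expected number of cells with a UMI of both genes, for 9 members (Cdh2 had too few UMIs), in macrophage-poor tumor-rule cells thinned to 3000 UMIs, with one map for each library and the color on a log2 scale clipped at 3. Epcam with Cdh1 is at 20.7 in FLOX and 32.3 in MCT1-KO, Krt8 with Krt18 at 1.08 in both, and Epcam with Vim and with Zeb2 below 1 in both.

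Epcam UMIs were concentrated in a few cells. The 1% of macrophage-poor cells with the most UMIs of a gene, 12 in FLOX and 24 in MCT1-KO, held 75.2% and 86.7% of the Epcam UMIs and 57.1% and 49.3% of the Cdh1 UMIs. The same share was 32.6% and 28.3% for Krt19, 15.6% and 13.2% for Krt7, 7.15% and 6.95% for Krt8 and 4.36% and 3.50% for Vim. The UMIs of Krt8, Krt18 and Vim were less concentrated but not even, since the cells that held 50% of them made up 18.7% and 19.0% of cells for Krt8, 18.9% and 20.03% for Krt18 and 22.6% and 26.0% for Vim.

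Cells with 2 or more UMIs of Epcam and Cdh1 together, 23 in FLOX and 43 in MCT1-KO, held 90.8% and 91.6% of the Epcam UMIs. In FLOX, Krt8 was at 1592 CPM in them and 424 CPM in cells with 0 such UMIs, a ratio of 3.75 (3.36 to 4.18). In MCT1-KO it was at 1717 and 539 CPM, a ratio of 3.18 (2.96 to 3.42). Krt18 gave 2.03 (1.79 to 2.31) and 2.86 (2.67 to 3.07) and Krt19 13.1 (10.9 to 15.8) and 5.82 (4.86 to 6.92). Krt7 gave 0.886 (0.403 to 1.69) in FLOX and 2.97 (2.32 to 3.76) in MCT1-KO, and that difference was not tested.

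The same cells held less Vim, Zeb1 and Zeb2. Vim was at 875 against 2766 CPM in FLOX, a ratio of 0.316 (0.273 to 0.365), and at 1489 against 3424 CPM in MCT1-KO, a ratio of 0.435 (0.403 to 0.468). Zeb1 gave 0.480 (0.274 to 0.781) and 0.691 (0.509 to 0.918), and Zeb2 0.214 (0.0857 to 0.441) and 0.507 (0.344 to 0.721). The matrix gene Fn1 gave 0.378 (0.311 to 0.456) and 0.472 (0.419 to 0.530), while the hyaluronan receptor Cd44 gave 0.967 (0.733 to 1.25) and 1.04 (0.884 to 1.21). The tight junction gene Cldn3 was at 159 against 0.767 CPM in FLOX and 235 against 1.20 CPM in MCT1-KO, and Cldn7 at 127 against 3.14 and 161 against 2.96 CPM. Sox9 gave 1.03 (0.772 to 1.35) and 1.20 (1.05 to 1.37). Spint2 gave 3.42 (2.74 to 4.22) and 1.99 (1.65 to 2.38), while Tspan8 gave 0.971 (0.765 to 1.22) in FLOX and was lower in MCT1-KO, at 0.595 (0.472 to 0.740). Cdh2 had 1 UMI in these cells in FLOX and 2 in MCT1-KO, with ratios of 2.60 (0.0634 to 15.9) and 5.60 (0.642 to 22.6), so its direction was not set at this depth.

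Some of the Epcam and Cdh1 cells carried markers of normal pancreas. Of the 43 MCT1-KO cells, 8 passed a limit for acinar, islet, mural or Schwann genes, 3 of them acinar and 1 islet, and of the 23 FLOX cells 3 did, with 0 acinar and 0 islet. The 10 acinar genes summed to 3397 CPM in the FLOX cells and 14138 CPM in the MCT1-KO cells, against 928 and 1614 CPM in cells with 0 Epcam and Cdh1 UMIs. In empty barcodes these genes summed to 326 CPM in FLOX, below both cell sums, and to 16997.5 CPM in MCT1-KO, above both. The part of free RNA in the cell sums was not tested. Without the cells that passed a limit the acinar sum was 3719.6 and 2376 CPM. Krt8 then gave 3.45 (3.06 to 3.88) and 3.41 (3.16 to 3.68), Krt19 14.2 (11.8 to 17.1) and 6.94 (5.78 to 8.27), Vim 0.336 (0.289 to 0.388) and 0.444 (0.409 to 0.482) and Zeb2 0.235 (0.0944 to 0.485) and 0.482 (0.308 to 0.718). Normal duct and epithelial tumor cells cannot be told apart by these genes. The median depth of the Epcam and Cdh1 cells was 7319 and 9655 UMIs, against 14774.5 and 15514.

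Cells with 1 Epcam or Cdh1 UMI, 50 in FLOX and 123 in MCT1-KO, were closer to the cells with 0. Vim was at 2534 and 3379 CPM, Zeb1 at 160.1 and 142 CPM, and Krt8 at 520.3 and 619 CPM. Krt19 was at 131 against 48.0 CPM in FLOX and 110.2 against 50.6 CPM in MCT1-KO.

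**Figure D4:**
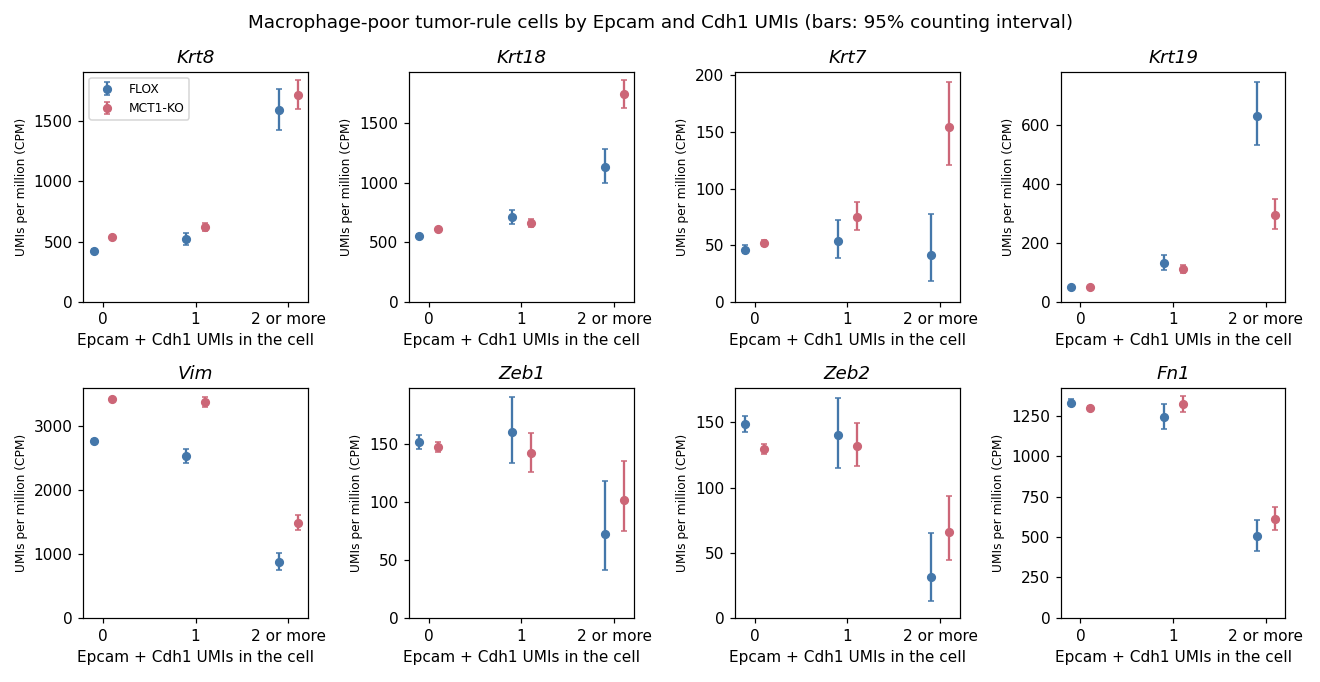
Level in CPM (vertical axis, from 0) of 8 genes in macrophage-poor tumor-rule cells with 0, 1, or 2 or more UMIs of Epcam and Cdh1 together, for both libraries, with 95% counting intervals. Krt8, Krt18 and Krt19 are higher and Vim, Zeb1, Zeb2 and Fn1 lower in the last set (23 and 43 cells) than in cells with 0.

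The members also varied over tumor-cell states set by other genes, each compared with cells at 0 UMIs of the state genes. State cells had the higher median depth in all 5 states and both libraries. For Msln the median depth was 21048 against 12481 UMIs in FLOX and 19663 against 14060 UMIs in MCT1-KO, for the cytokine genes 20401 against 11034.5 UMIs in FLOX and 18305.5 against 13959 UMIs in MCT1-KO, for the interferon-induced genes 18415 against 7389 UMIs in FLOX and 17727 against 12820 UMIs in MCT1-KO and for cycling 17534 against 9832.5 UMIs in FLOX and 17901.5 against 13587 UMIs in MCT1-KO. The part of depth in the ratios was not tested. In cells with 3 or more UMIs of Msln, a surface protein of mesothelium and pancreatic cancer (32 and 233 cells), Krt19 was at 189 and 154 CPM, 4.73 (3.84 to 5.79) and 4.92 (4.41 to 5.48) times the cells with 0. Krt7 was at 2.83 (2.15 to 3.67) and 3.76 (3.37 to 4.20) times and Krt8 at 1.51 (1.36 to 1.67) and 1.52 (1.46 to 1.58) times. Vim was at 1.08 (1.03 to 1.13) and 1.21 (1.19 to 1.23) times and Zeb2 at 0.807 (0.633 to 1.02) and 0.794 (0.719 to 0.874) times. Epcam in MCT1-KO was at 0.223 CPM, against 12.9 CPM. High Krt19 was thus found both in Msln cells with Vim near the level of other cells and in the Epcam and Cdh1 cells with low Vim.

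In cells with 2 or more UMIs of the cytokine genes Lif and Csf3 (191 and 478), Krt8 was at 0.761 (0.715 to 0.809) and 0.813 (0.785 to 0.843) times, Krt18 at 0.770 (0.729 to 0.812) and 0.795 (0.769 to 0.823) times and Zeb1 at 1.26 (1.14 to 1.39) and 1.54 (1.45 to 1.64) times. The next state was cells with 3 or more UMIs of the interferon-induced genes Gbp2, Gbp5 and Cxcl10 (543 and 710). Krt19 was at 1.88 (1.47 to 2.42) and 1.47 (1.32 to 1.64) times and Zeb1 at 1.20 (1.06 to 1.36) and 1.21 (1.13 to 1.29) times. With cells thinned to equal depth, Krt19 was found in 9.58% of the interferon cells in FLOX, against 11.6% of cells with 0 UMIs. In MCT1-KO these shares were 12.1% and 7.53%. The higher Krt19 was thus seen by both measures in MCT1-KO, but by level only in FLOX. In cycling cells, with 2 or more UMIs of Mki67 and Top2a (293 and 642), Krt8 was at 1.08 (1.02 to 1.14) and 1.11 (1.07 to 1.14) times and Krt19 at 0.920 (0.793 to 1.07) in FLOX and 1.56 (1.41 to 1.73) in MCT1-KO.

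Cells with 3 or more UMIs of Enpp2, which makes lysophosphatidic acid, and the growth-arrest gene Gas1 were most of the macrophage-poor cells, 859 and 1938, against 82 and 156 with 0. Vim was at 1.46 (1.36 to 1.56) and 1.45 (1.40 to 1.51) times, Zeb1 at 1.36 (1.04 to 1.80) and 1.79 (1.46 to 2.20) times and Krt19 at 0.280 (0.222 to 0.357) and 0.330 (0.279 to 0.394) times. Epcam was at 1.77 and 0.994 CPM, against 63.2 and 129 CPM in cells with 0. The median depth was 17608 and 16507 UMIs, against 4642.5 and 5486.

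**Figure D5:**
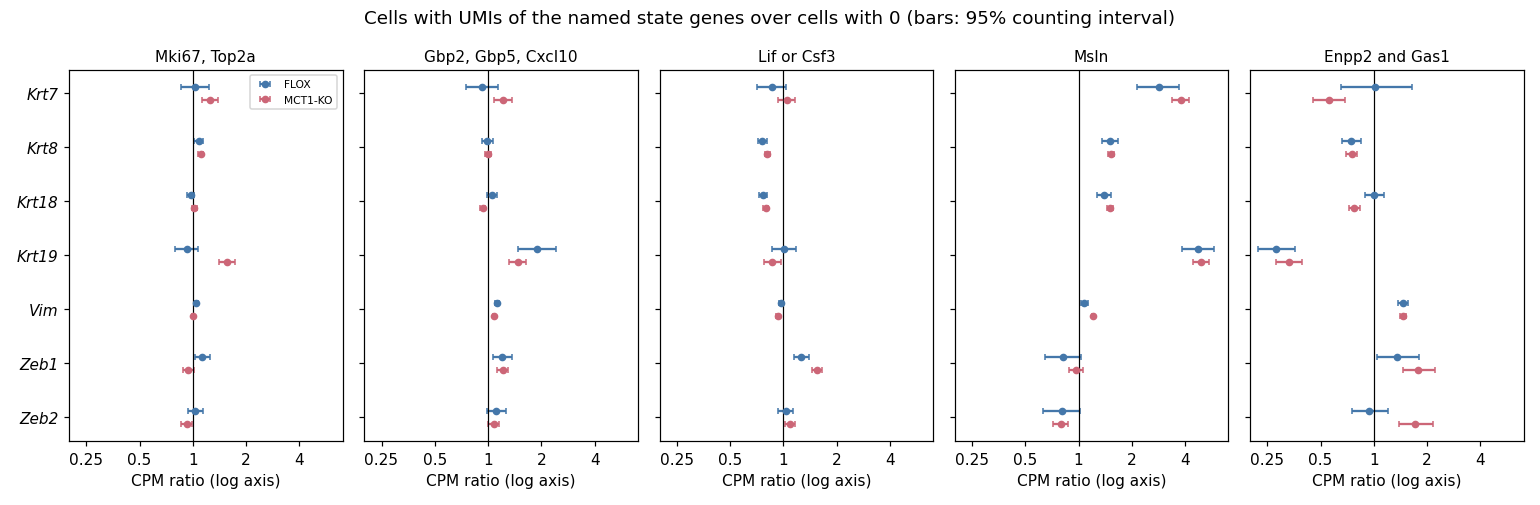
Ratio of a gene's level in cells with UMIs of the state genes over cells with 0 such UMIs (log axis), for 5 states of macrophage-poor tumor-rule cells and both libraries, with 95% counting intervals. Krt7 and Krt19 are highest in the Msln cells and Krt19 is lowest in the Enpp2 and Gas1 cells.

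Likeness between genes over single cells was weak and is given as a description over the macrophage-poor cells of each library and 5945 genes, which share libraries and were thinned to equal depth. The gene most like Krt8 was Krt18, with a Pearson r of 0.278 and 0.346 on the log scale (FLOX first). By the mean r over the libraries Vim was most like S100a10, a membrane-linked calcium-binding family protein, at 0.308 and 0.414, followed by Lmna, S100a6, Anxa1 and S100a4. In FLOX alone S100a6 stood above S100a10, at 0.314. By the same mean Krt19 was most like Krt8, at 0.160 and 0.212, followed by Mif and the glycolysis genes Gapdh, Pgk1 and Pkm. In FLOX alone Mif, at 0.213, and these glycolysis genes stood above Krt8. The gene most like Zeb1 was the nuclear RNA Malat1, at 0.333 and 0.222, followed by mitochondrial transcripts.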

How the data were processed

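The authors deposited, for each of 2 single-cell 3' RNA-seq libraries, a matrix of raw UMI counts per gene and barcode. Per the labels and methods these counts came from SeekOneTools, and Seurat 4.0.0 was used downstream. The human build those sources name does not match the mouse gene identifiers in the files, so the alignment build is not known here, and the sources differ on the capture kit. Groups came from the genotype labels, with 1 library each, so no test, p-value or SD was computed. The libraries held 177334432 (FLOX) and 151118092 (MCT1-KO) UMIs. Counts were summed over cells of a class and divided by the class total (CPM). Levels have Garwood intervals, ratios conditional exact intervals and shares Clopper-Pearson intervals, all at 95%. Co-detection has the 95% Clopper-Pearson interval of the share of cells with both genes, divided by the expected share, which was taken as fixed. Cells were thinned to 3000 UMIs without replacement. Doublets were not called. A difference was counted at 1.5-fold among genes with 50 or more UMIs. Likeness was Pearson's r of log(1 + thinned UMIs), for the 5 genes nearest by the mean over the libraries, among those found in 5% or more of cells. Endothelial-rule cells had a Pecam1 UMI and no Ptprc, and T/NK-rule cells a Ptprc and a Cd3 UMI and at most 1 macrophage-gene UMI. The ratio interval was tested on simulated Poisson counts only, the model it assumes. That test does not cover UMIs concentrated in a few cells, as those of Epcam were. The co-detection value was tested on simulated independent genes and on a simulated pair that shared its cells. For the thinning, the depth reached was checked on part of the FLOX tumor-rule cells. Python 3.11.15, numpy 2.4.6, scipy 1.17.1 and pandas 2.3.3 were used. The members and gene lists were chosen with earlier results of these data known. One promoter window is not reported here.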

Additional observations from a re-analysis of the deposited data

Results flagged for a closer look

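In Cdh2 and Zeb2 the ratio of MCT1-KO over FLOX lay on opposite sides of 1 in macrophage-poor tumor-rule cells and in another class, with intervals that did not hold 1, and the difference between the classes was not tested. Cdh2 had a ratio of 0.389 (0.221 to 0.681) in macrophage-poor tumor-rule cells and of 1.73 (1.22 to 2.46) in fibroblast-rule cells with 20 or more Dcn and Lum UMIs. Zeb2 had a ratio of 0.879 (0.835 to 0.925) in macrophage-poor tumor-rule cells and of 1.12 (1.08 to 1.16) in macrophage/monocyte-rule cells. Between other classes, Krt19 was at 1.27 (1.12 to 1.43) in fibroblast-rule cells (2 or more Dcn and Lum UMIs), 1.28 (1.02 to 1.60) in those with 20 or more and 0.523 (0.335 to 0.808) in endothelial-rule cells, and Zeb1 at 0.899 (0.856 to 0.944) in fibroblast-rule cells, 0.847 (0.783 to 0.917) in those with 20 or more, 0.698 (0.591 to 0.824) in endothelial-rule and 1.40 (1.06 to 1.86) in T/NK-rule cells. Each class is 1 library per group, so a difference between the libraries cannot be told apart from one between the genotypes.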

How the results depend on the processing

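No paired analysis was possible because each group has 1 library, and for the same reason no replicate could be left out. The number of members past 1.5-fold between the libraries was 1, and it was 4 after free RNA was subtracted as estimated from 5 macrophage genes over all tumor-rule cells (an estimated 63.2% and 46.8% of UMIs, which includes macrophage RNA of macrophage-containing cells), with Krt8 at 1.62, Krt18 at 1.65, Cdh2 at 0.123 and Zeb2 at 0.559, where 23.6% of all genes were higher and 17.4% lower by 1.5-fold under the same subtraction. With the estimate made in macrophage-poor cells (30.6% and 24.1%), an alternative added after the data were seen, it was 1, Cdh2 at 0.267. The share of tumor-rule cells with an Epcam or Cdh1 UMI was 2.50% in FLOX and 2.12% in MCT1-KO at 3000 UMIs, 5.69% and 6.37% without thinning, and 1.32% and 1.23% at 1000 UMIs, where fewer UMIs are read by construction. The other 30 alternatives of the main results stayed within their interval or within 1.5 times the count, but the interval of the co-detection of Epcam and Cdh1 in FLOX tumor-rule cells was wide, and its value of 21.8 (8.79 to 44.9) was 43.7 (11.9 to 111.6) at 1000 UMIs. Over 11 alternatives the ratio of MCT1-KO over FLOX was above 1 in all for Krt7 (1.16 to 1.48), Krt8 (1.19 to 1.62), Krt18 (1.06 to 1.65) and Vim (1.22 to 1.33), and below 1 in all for Cdh2 (0.123 to 0.580) and Zeb2 (0.559 to 0.879). It lay on both sides of 1 for Krt19 (0.946 to 1.06), Epcam (0.691 to 1.48), Cdh1 (0.678 to 1.33) and Zeb1 (0.750 to 1.12). With 0 UMIs of Dcn and Lum the interval of Cdh2 held 1, at 0.517 (0.233 to 1.17). With genes of 10 or more UMIs, 9.88% were higher and 15.2% lower in MCT1-KO by 1.5-fold. Leaving out every cell with an immune UMI gave no value, since 1 FLOX and 61 MCT1-KO cells were left. The macrophage-poor set was added after the data were seen.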
